A study of Mus musculus with 28 samples.

Results

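The genes described are 10 chosen around oxalate, glyoxylate and hydroxyproline. They are the anion exchangers Slc26a1, Slc26a2, Slc26a6, Slc26a10 and Slc26a11, and the enzymes Prodh, Aldh4a1, Hoga1, Grhpr and Agxt2. Not all of them are known to act on these compounds: Prodh takes proline, and the ions of Slc26a10 are less well known. All 10 were taken by symbol from a table of raw gene counts with 45513 rows, and each symbol was found. The counts come from RNA sequencing of ventricular myocardium of 28 adult male C57BL/6 mice, 1 library per mouse. At 6 weeks of age the mice had either 5/6 nephrectomy, in which most kidney tissue is removed to induce chronic kidney disease (CKD), or a sham operation. Every mouse, controls included, ate a diet with 1% hydroxyproline and 0.5% calcium. On day 7 each was gavaged once with 200 µl of culture medium, with or without Oxalobacter formigenes (Oxf), a gut bacterium that lives on oxalate. With sham surgery, 10 mice had received vehicle (sham-vehicle) and 5 the bacterium (sham-Oxf). With CKD surgery, 6 had received vehicle (CKD-vehicle) and 7 the bacterium (CKD-Oxf). The design states 10 mice per group, and 4 CKD-vehicle, 5 sham-Oxf and 3 CKD-Oxf mice were not analysed here. No group ate a diet without hydroxyproline, so nothing here shows the effect of the diet.

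Oxalate is an end product that mammals cannot break down and that the kidney excretes. In liver and kidney mitochondria, hydroxyproline is oxidised by the hydroxyproline dehydrogenase Prodh2, then by Aldh4a1, then transaminated by Got2, and the product is split by the aldolase Hoga1 into pyruvate and glyoxylate. Glyoxylate is reduced to glycolate by Grhpr, transaminated to glycine by Agxt or Agxt2, or oxidised to oxalate by lactate dehydrogenase. SLC26 proteins exchange anions such as chloride, bicarbonate, sulfate and oxalate across membranes, and Slc26a6 is known as a chloride-bicarbonate exchanger of heart muscle cells.

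The depth was 19.8 to 65.4 M counts per library (M for mega) with a median of 38.1 M. Muscle genes of the ventricle were high throughout, with a mean of 18319 CPM for Myh6 (CPM are counts scaled to a common library size, after TMM factors). Atrial genes were also read in every library, Myl7 at 5.50 to 623 CPM, and the summed level of 8 hepatocyte genes ran from 4.36 to 116 CPM. Kidney tubule genes were lower, with Umod at 0 in 14 libraries, but Slc12a3 was read in every library at 0.534 to 5.22 CPM. Miox reached 6.07 CPM, and the summed kidney tubule level ran from 0.892 to 11.3 CPM, highest in sham-Oxf replicate 1. Sham-Oxf replicate 1 stood apart, with 15879 genes that had a count against 27128 to 33995 in the other libraries. CKD-Oxf replicate 4 had the fewest of those others and the highest hepatocyte sum. From 7SL, the RNA part of the particle that guides secreted proteins, it had 23.0% of its counts, within the 2.12% to 23.6% of all libraries. For the described genes, differences fitted without a covariate that rest on sham-Oxf replicate 1 or CKD-Oxf replicate 4 are given with and without them.

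A gene was called expressed when it passed the count filter and had a mean of at least 1 CPM. Of the 10 genes, 9 were expressed in these hearts, as were 16803 of all 45513 genes, and 1 was under the filter. Slc26a10 had the highest level per length, at 17.4 CPM per kb of exon, with a mean of 70.3 CPM. The next by length was the enzyme Grhpr at 4.53 CPM per kb, followed by Prodh (2.98), Aldh4a1 (2.93), Slc26a1 (2.51) and Slc26a6 (2.19). Slc26a11 had 1.79, Slc26a2 0.848 and Hoga1 0.458 CPM per kb. From Prodh to Slc26a6 the neighbours in this order were closer than the SD over the 28 libraries, which was 0.946 CPM per kb for Prodh and 0.968 for Slc26a1.

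**Figure D1:**
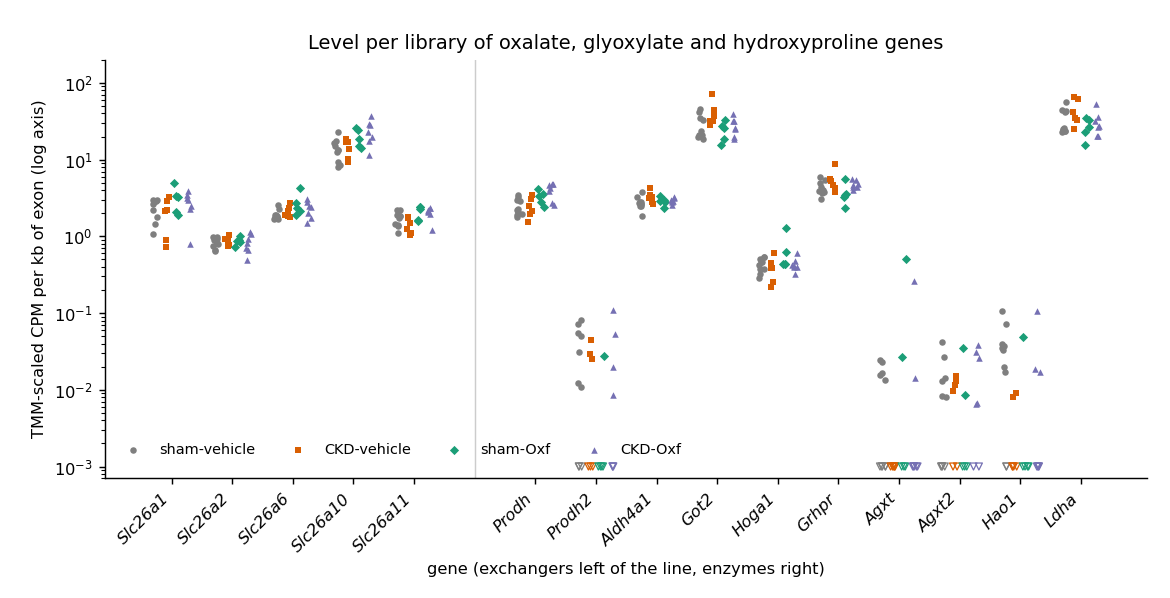
Level of each gene in each of the 28 libraries, as TMM-scaled CPM per kb of exon on a log axis, with the 5 exchangers left of the line and the enzymes, Prodh2, Got2, Agxt, Hao1 and Ldha among them, right of it; filled symbols are libraries by group and open triangles at the foot mark libraries with 0 counts. Slc26a10 lies above the other exchangers, and Prodh2, Agxt, Agxt2 and Hao1 lie far below Prodh, Grhpr and Ldha.

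The enzymes on either side of this pathway fell into abundant and nearly unread ones. Agxt2, the mitochondrial alanine-glyoxylate aminotransferase that also degrades methylated arginines, had 43 counts over all 28 libraries. It had 0 counts in 11 libraries and at most 6 in any, where 3 counts, taken as the floor, were worth 0.0554 to 0.142 CPM. No group difference is given for it. Prodh2, the dehydrogenase that starts hydroxyproline breakdown, had 63 counts in all, Agxt, the peroxisomal liver transaminase, 44, and Hao1, the glycolate oxidase, 55. Of the Agxt counts, 18 came from sham-Oxf replicate 1 and 17 from CKD-Oxf replicate 4, the 2 libraries that stand apart. By contrast Got2 had a mean of 144 CPM and Ldha, a lactate dehydrogenase subunit, 111 CPM. Hoga1 was just inside the limit for an expressed gene, at a mean of 1.04 CPM. Without sham-Oxf replicate 1 its mean fell below 1 CPM and 8 of the 10 genes were expressed.

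Positions are from GENCODE M21, build GRCm38, and each of the 10 genes is annotated as protein-coding there. Slc26a1 is at chr5:108669878-108675569 on the minus strand, inside the span of Idua, which encodes a lysosomal iduronidase and runs the other way. They share 141 exon bases, 3.48% of the exon bases of Slc26a1. Slc26a10 is at chr10:127171393-127180645, minus strand, and shares 17.8% of its exon bases with B4galnt1, a ganglioside synthase gene on the plus strand. Whether the counting used strand is not given in the sources used here, so reads in these shared stretches cannot be told apart. Prodh is at chr16:18060357-18090203, minus strand, and shares no exon base with another gene. Aldh4a1, at chr4:139622866-139649690, plus strand, shares 32.5% of its exon bases with a readthrough model on its own strand. That model had 129 counts over all libraries. How reads in that stretch were counted is not known, so the place of Aldh4a1 in the order per kb is uncertain. Slc26a11, at chr11:119355557-119381079, plus strand, starts just beyond the start of Sgsh, a sulfamidase gene on the minus strand that ends at position 119355536. Of the other genes, Slc26a6 is at chr9:108853283-108913049, Hoga1 at chr19:42045610-42070953, Grhpr at chr4:44981395-44990734 and Agxt2 at chr15:10358532-10410153, on the plus strand each.

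Promoter windows of 250 bases before to 50 after the start, from RefSeq on GRCm38.p6, were used for 8 of the genes, in 10 windows. No window of Slc26a2 or Slc26a11 was used. They were searched on both strands for the E-box CACGTG bound by CLOCK and BMAL1, the D-box TTATGTAA or TTACGTAA bound by DBP, TEF and HLF, and the RORE bound by ROR and REV-ERB proteins. These motifs, in that order, were in 7.15%, 1.06% and 0.219% of all 32851 windows. The only match among the 10 windows was 1 E-box in the second Slc26a1 window, which overlaps no other match. The windows printed here run 5′ to 3′ on the gene's strand. They are those of Prodh and Slc26a10, the genes that passed the test below, and the Slc26a1 window, where capitals mark the E-box.
Prodh, chr16:18089141-18089440, minus strand: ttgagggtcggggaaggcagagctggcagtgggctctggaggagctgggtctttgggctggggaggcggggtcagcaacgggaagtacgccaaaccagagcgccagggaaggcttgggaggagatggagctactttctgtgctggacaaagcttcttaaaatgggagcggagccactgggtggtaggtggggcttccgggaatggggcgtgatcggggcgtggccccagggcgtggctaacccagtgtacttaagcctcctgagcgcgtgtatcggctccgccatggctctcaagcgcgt
Slc26a10, chr10:127180533-127180832, minus strand: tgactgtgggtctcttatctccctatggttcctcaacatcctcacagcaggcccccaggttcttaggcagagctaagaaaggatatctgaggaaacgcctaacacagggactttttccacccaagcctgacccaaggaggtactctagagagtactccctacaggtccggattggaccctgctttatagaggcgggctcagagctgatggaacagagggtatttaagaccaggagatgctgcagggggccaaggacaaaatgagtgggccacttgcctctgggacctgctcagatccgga
Slc26a1, chr5:108674747-108675046, minus strand: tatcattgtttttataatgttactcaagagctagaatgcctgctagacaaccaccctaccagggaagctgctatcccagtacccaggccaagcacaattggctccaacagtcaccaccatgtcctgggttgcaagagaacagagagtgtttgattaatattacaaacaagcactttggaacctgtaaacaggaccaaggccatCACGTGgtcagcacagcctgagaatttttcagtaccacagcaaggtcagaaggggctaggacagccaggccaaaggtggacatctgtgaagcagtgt
The Prodh and Slc26a10 windows held none of these letters, which says nothing of the factors themselves.

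Among the exchangers, Slc26a10 showed the clearest order of groups. It belongs to the family by sequence, and its transported ions are less well known than those of the others. It ranged from 32.5 to 91.97 CPM around a median of 54.1 in sham-vehicle, and from 37.4 to 74.8 around 61.9 in CKD-vehicle. The sham-Oxf libraries were at 56.6, 60.5, 75.2, 98.1 and 105 CPM. The CKD-Oxf libraries ran from 45.8 to 149 CPM around 93.0. Both Oxf groups lay higher on the whole, and their lower libraries overlapped the vehicle groups.

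Slc26a11, a sulfate and chloride transporter, ranged from 4.05 to 8.01 CPM in sham-vehicle with a median of 6.39. It ranged from 3.80 to 6.45 in CKD-vehicle (median 4.92) and from 4.37 to 8.56 in CKD-Oxf (median 7.78). In sham-Oxf the libraries were at 5.74, 5.97, 8.16, 8.64 and 8.71 CPM. Of the 7 CKD-Oxf libraries, all but replicate 4 were above the highest CKD-vehicle library.

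Slc26a1, which carries sulfate and oxalate and is best known from liver and kidney, had the widest spread within a group among the exchangers. It ran from 4.30 to 12.2 CPM in sham-vehicle (median 11.0), 2.94 to 13.02 in CKD-vehicle (8.71) and 3.19 to 15.7 in CKD-Oxf (12.0). The sham-Oxf values were 7.73, 8.44, 13.1, 13.7 and 19.8 CPM. The SD was 50.7% of the mean in CKD-vehicle, and the 4 groups overlapped.

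Slc26a6, the exchanger most studied in heart muscle and for intestinal oxalate secretion, was steadier. It ran from 8.98 to 13.8 CPM in sham-vehicle (median 9.83), 9.54 to 14.6 in CKD-vehicle (10.9) and 8.19 to 16.4 in CKD-Oxf (13.2). In sham-Oxf it was at 10.2, 11.5, 12.5, 14.8 and 23.3 CPM, the last in replicate 1, the library that stands apart. The groups overlapped.

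Slc26a2, the sulfate transporter on which cartilage matrix depends, had nearly the same mean in each group. The means were 10.3 ± 1.45 CPM in sham-vehicle (SD, n = 10), 10.8 ± 1.36 in CKD-vehicle (n = 6), 10.7 ± 1.32 in sham-Oxf (n = 5) and 10.3 ± 2.91 in CKD-Oxf (n = 7). The CKD-Oxf libraries spread widest, from 5.99 to 14.1 CPM. Cartilage genes were read beside it, Comp at 4.41 to 29.0 CPM and Matn3 at 0 in 24 libraries.

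Among the enzymes, Prodh had the same order of group medians as Slc26a10, with the vehicle groups nearly equal. It encodes proline dehydrogenase, the mitochondrial enzyme that takes proline, not hydroxyproline, to pyrroline-carboxylate. Prodh ranged from 14.1 to 26.8 CPM in sham-vehicle (median 17.6) and from 12.2 to 26.6 in CKD-vehicle (17.8). The sham-Oxf libraries were at 18.6, 21.8, 26.4, 27.6 and 31.9 CPM, and the CKD-Oxf libraries ran from 20.0 to 37.7 with a median of 33.1. Of the 7 CKD-Oxf libraries, 5 lay above every vehicle library, while replicates 4 and 1 lay within the vehicle range.

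Aldh4a1, the dehydrogenase shared by the proline and hydroxyproline routes, overlapped between the groups. Its range was 9.06 to 18.8 CPM in sham-vehicle (median 13.3), 12.8 to 20.9 in CKD-vehicle (15.7) and 12.7 to 16.1 in CKD-Oxf (14.3). The sham-Oxf values were 11.4, 13.7, 14.3, 14.5 and 16.2 CPM. The CKD-Oxf range lay inside that of sham-vehicle.

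Hoga1, the aldolase that forms glyoxylate and is mutated in a form of primary hyperoxaluria, was read at 21 to 67 counts per library. It ran from 0.640 to 1.21 CPM in sham-vehicle (median 0.998), 0.501 to 1.36 in CKD-vehicle (0.880) and 0.721 to 1.39 in CKD-Oxf (0.926). In sham-Oxf it was at 0.973, 0.985, 0.991, 1.43 and 2.89 CPM. The last value, 61 counts in replicate 1, was the highest of all 28.

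Grhpr, the reductase that removes glyoxylate and is mutated in another form of primary hyperoxaluria, ran from 4.91 to 9.64 CPM in sham-vehicle (median 6.43). It ran from 6.11 to 13.9 in CKD-vehicle (7.95) and from 6.44 to 8.98 in CKD-Oxf (7.46). The sham-Oxf values were 3.75, 5.15, 5.62, 5.67 and 8.89 CPM. In sham-Oxf, 4 of 5 libraries lay below the lowest CKD-vehicle library.

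**Figure D2:**
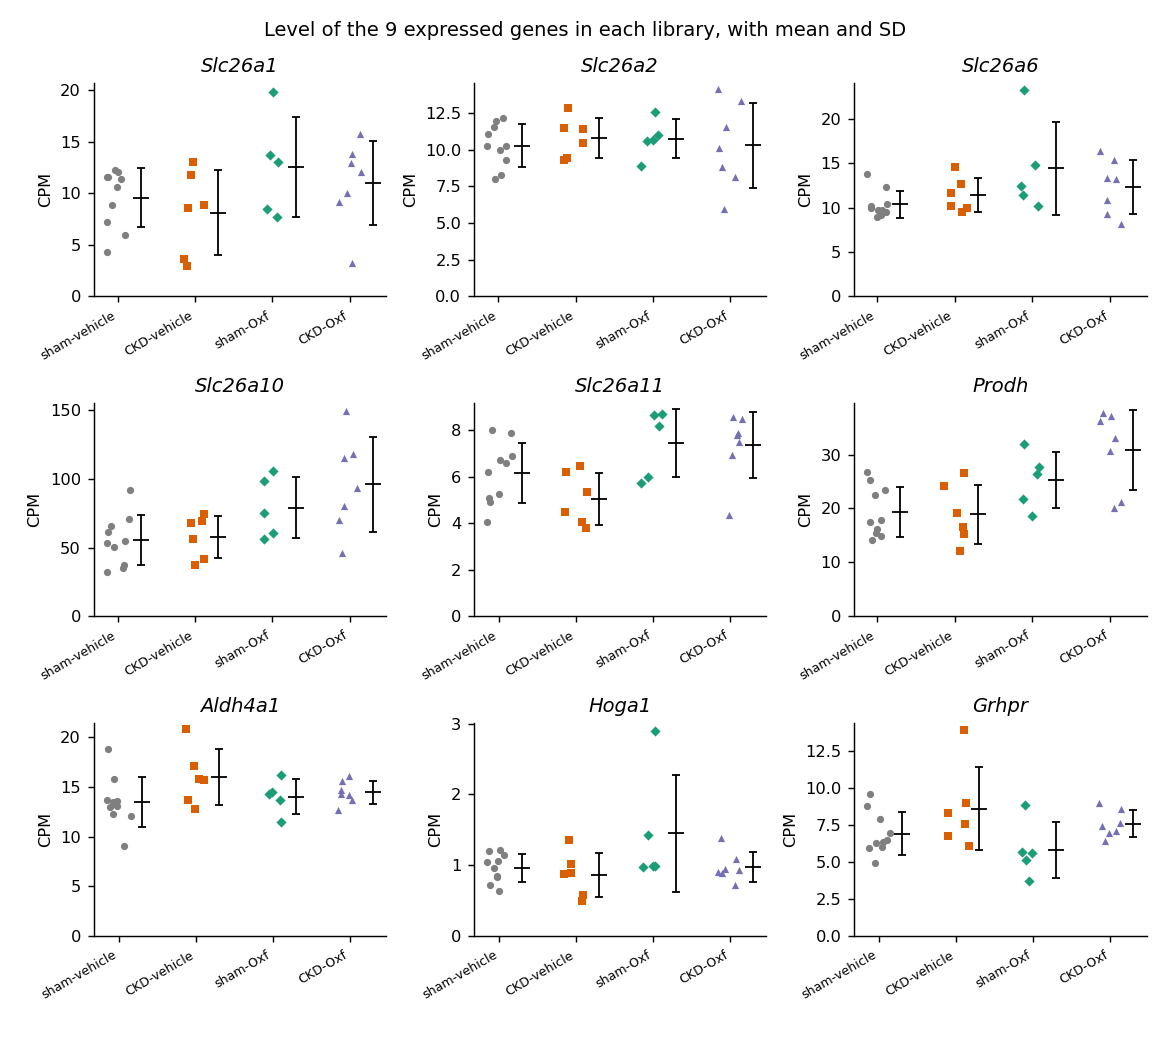
CPM of the 9 expressed genes in each library (points, by group) with the group mean and SD (bars at the right of each group), each panel on its own linear axis from 0. Prodh and Slc26a10 lie higher in the Oxf groups, the Slc26a2 means lie close together, and 1 sham-Oxf library sets the top of the Slc26a6 and Hoga1 panels.

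Prodh and Slc26a10 passed the test for the bacterium. With Oxf and vehicle compared over both surgeries, Prodh rose by 0.54 ± 0.13 on the log2 scale (SE; 1.46-fold; edgeR adjusted p = 0.0351). Slc26a10 rose by 0.63 ± 0.17 (1.54-fold; edgeR adjusted p = 0.046). In this comparison 2.81% of the 24273 tested genes passed, and 1.26% were higher, against 2 of the 9 tested members higher and 0 lower. At an unadjusted p under 0.05 the counts were 4 of 9 members against 23% of all genes. The median difference was 0.37 over the 9 genes and 0.00 over all tested genes. More cells of a type and more RNA per cell cannot be told apart in such bulk tissue.

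The other exchangers stayed short of the threshold with Oxf. Slc26a11 differed by 0.41 ± 0.12 (edgeR adjusted p = 0.0623), Slc26a6 by 0.29 ± 0.12 (0.145) and Slc26a1 by 0.41 ± 0.23 (0.278). Slc26a2 was at -0.00, with a 95% interval from -0.23 to 0.22. Among the enzymes, Hoga1 was at 0.37 ± 0.19 and Grhpr at -0.22 ± 0.13. Without sham-Oxf replicate 1, Slc26a6 and Hoga1 were both at 0.18. Aldh4a1, one step after Prodh, was at -0.04 with an interval from -0.23 to 0.14. B4galnt1, which shares exon bases with Slc26a10, was at 0.69 ± 0.32 with a mean of 5.00 CPM against 70.3 CPM for Slc26a10, and did not pass (edgeR adjusted p = 0.194).

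Both calls were close to the threshold. The Prodh difference lay between 0.49 and 0.60 whichever library was left out, and its edgeR adjusted p between 0.00769 and 0.083. Its call was lost without sham-vehicle replicate 3, 4, 5 or 7, CKD-vehicle replicate 1, 2, 3 or 4, sham-Oxf replicate 4 or 5, or CKD-Oxf replicate 2, 3, 5 or 6. Slc26a10 lay between 0.56 and 0.67 with an adjusted p between 0.00833 and 0.0985. It was lost without any of the same libraries and also without sham-vehicle replicate 1 or 10 or CKD-Oxf replicate 1. Without the 2 libraries that stand apart, the differences were 0.63 for Prodh (edgeR adjusted p = 0.00489), 0.69 for Slc26a10 (0.00925) and 0.49 for Slc26a11 (0.00672), so that 3 of the 9 genes passed. In that fit 19.1% of all genes passed too.

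Within CKD mice, the gavage comparison placed the same genes highest without a call. CKD-Oxf minus CKD-vehicle was 0.70 ± 0.19 for Prodh (edgeR adjusted p = 0.196), 0.73 ± 0.25 for Slc26a10 (0.242) and 0.54 ± 0.18 for Slc26a11 (0.237). With edgeR, 0 of the 9 genes and 0.033% of all genes passed (0.0247% higher, 0.00824% lower), and at an unadjusted p under 0.05 these were 3 of 9 and 13.1%. DESeq2 called 1, Prodh, beside 1.75% of all genes, and limma voom with sample weights called Prodh, Slc26a10 and Slc26a11 beside 15% of all genes. Without CKD-Oxf replicate 4 edgeR called all 3, at adjusted p = 0.0359, 0.0443 and 0.0468, beside 3.83% of all genes. The remaining 6 lay between -0.18 (Grhpr) and 0.43 (Slc26a1).

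Within sham mice, sham-Oxf minus sham-vehicle was largest for Hoga1 at 0.57 ± 0.27, then Slc26a10 at 0.52 ± 0.24, Slc26a6 at 0.47 ± 0.17 and Prodh at 0.38 ± 0.19. With edgeR 0 of the 9 genes passed, and 0% of all genes did. At an unadjusted p under 0.05 there were 4 of 9 against 12.6%. DESeq2 and limma voom called 0 of the 9, beside 0.56% and 0.14% of all genes. Without sham-Oxf replicate 1, Hoga1 was at 0.18 and Slc26a6 at 0.24. The difference between the responses of CKD and sham mice was 0.32 ± 0.27 for Prodh and 0.21 ± 0.35 for Slc26a10. In that interaction 0 of the 9 genes passed with edgeR, DESeq2 or limma voom, with 0% of all genes in edgeR, and 0 of 9 against 3.55% had an unadjusted p under 0.05.

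**Figure D3:**
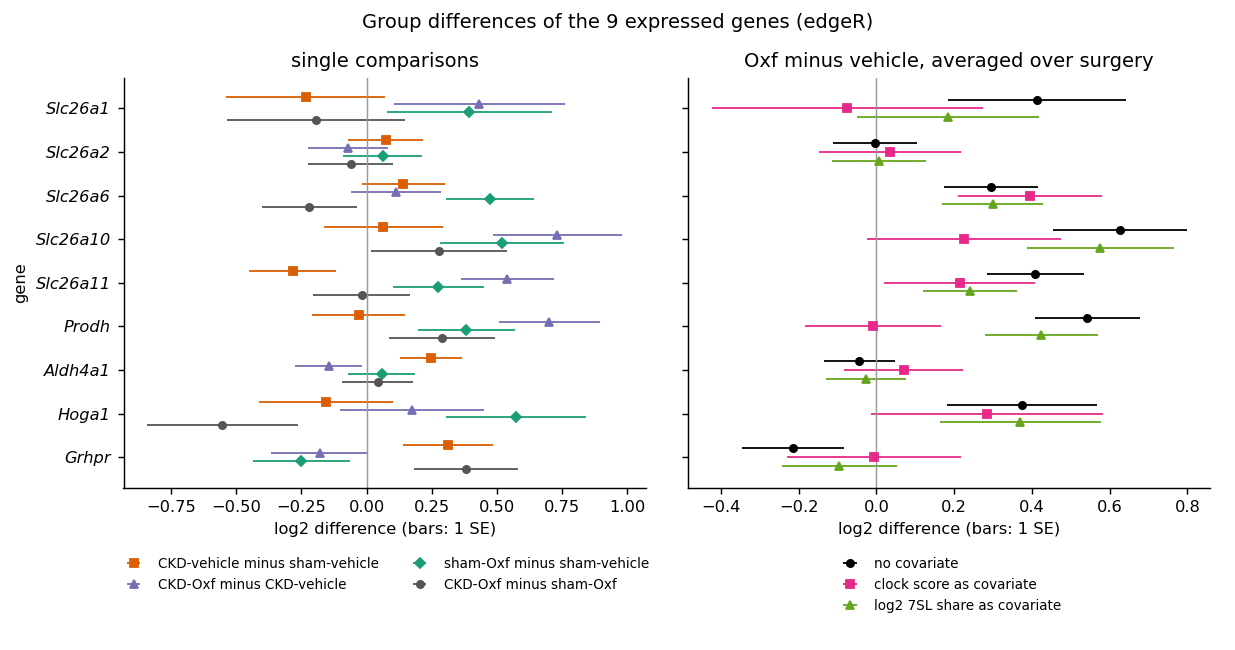
Log2 differences of the 9 expressed genes from edgeR with bars of 1 SE, for the 4 single comparisons (left) and for Oxf minus vehicle averaged over surgery without a covariate, with the clock score and with the log2 7SL share as covariate (right). Prodh moves from 0.54 to -0.01 with the clock score as covariate and to 0.42 with the 7SL share.

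Kidney disease itself was not accompanied by a called change. In CKD-vehicle minus sham-vehicle 0 of the 9 genes passed with edgeR, DESeq2 or limma voom. Of all genes, 0.00824% passed with edgeR, 0.12% with DESeq2 and 0.383% with limma voom. At an unadjusted p under 0.05 in edgeR there was 1 of 9 against 4.46% of all genes. That gene was Aldh4a1, at 0.25 ± 0.12 (edgeR adjusted p = 0.955), and at 0.13 without CKD-vehicle replicate 2. Grhpr was at 0.31 ± 0.17, and at 0.10 without that library, which held its highest value of 13.9 CPM. Slc26a11 was at -0.28 ± 0.17, and Prodh at -0.03 with an interval from -0.40 to 0.34.

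Between the Oxf groups, CKD-Oxf minus sham-Oxf, 0 of the 9 genes passed with edgeR, DESeq2 or limma voom. Of all genes, 0% passed with edgeR and limma voom and 0.421% with DESeq2. At an unadjusted p under 0.05 in edgeR these were 0 of 9 and 8.23%. Hoga1 was lowest at -0.55 ± 0.29, and at -0.16 without sham-Oxf replicate 1. Grhpr was highest at 0.38 ± 0.20, and at 0.26 without that library. Averaged over gavage, surgery gave 0 calls of 9 in edgeR, DESeq2 and limma voom, beside 0%, 0.425% and 0.519% of all genes. Grhpr alone had an unadjusted p under 0.05 there, 1 of 9 against 10.6% of all genes, at 0.35 ± 0.13 (edgeR adjusted p = 0.347). These comparisons share libraries with those above.

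Circadian clock genes differed between the gavage groups. A clock score, the mean log2 level of 9 genes around Dbp less that of 4 genes around Arntl, ran from -1.71 to 2.01 in sham-vehicle mice. In CKD-vehicle it lay between -2.64 and -0.30, in CKD-Oxf between -0.16 and 1.87, and in sham-Oxf between 0.71 and 2.33. No CKD-Oxf library scored as low as a CKD-vehicle library. Averaged over surgery, Arntl, the gene of BMAL1, was lower with Oxf by a log2 difference of -2.11 (edgeR adjusted p = 0.000996). With the score as covariate, the Oxf difference was -0.01 for Prodh (edgeR adjusted p = 0.994), 0.23 for Slc26a10 (0.838) and 0.21 for Slc26a11 (0.801). In that edgeR fit 0 of the 9 genes and 0 of all genes passed. Of the 9, 1, Slc26a6, had an unadjusted p under 0.05, and the share of all genes under that p was not computed. Slc26a6 was at 0.39 there, against 0.29 without the covariate. Its highest value, 23.3 CPM, was in sham-Oxf replicate 1, and the fit with the score was not run without that library. Mouse numbers differed too, from 901 to 920 in the vehicle groups and from 921 to 940 in the Oxf groups. Within sham-vehicle the score was -1.71 in mouse 901, -0.10 in mouse 905 and 1.41 in mouse 910, not rising at every step. In CKD-vehicle it was -2.64 in mouse 913 and -0.73 in mouse 920. Its relation with mouse number was not tested. The score, the mouse number and the gavage group differ together between groups, and their parts in these differences cannot be told apart.

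Within single groups, where surgery and gavage are fixed, the relation of each gene with the score was computed in the 3 groups of 6 or more mice. None of the 27 relations passed at an adjusted p of 0.05, with Pearson or Spearman. For Prodh, r was 0.595 in sham-vehicle (n = 10, permutation p = 0.073, rho 0.406 with p = 0.244). It was 0.835 in CKD-vehicle (n = 6, exact permutation p = 0.05, rho 0.714 with p = 0.136) and 0.541 in CKD-Oxf (n = 7, exact permutation p = 0.233, rho 0.25 with p = 0.595). Adjusted over the 27 relations, these p of r were 0.477, 0.477 and 0.629. Without the 2 mice farthest from the median score, r for Prodh was 0.21, 0.858 and 0.152. Leaving these mice out also narrows the range of the score, so whether r rested on them cannot be told. For Slc26a10, r was 0.55, 0.799 and -0.336 in the same groups, with a permutation p of 0.1, 0.0736 and 0.433 (adjusted 0.477, 0.477 and 0.687). Its rho was 0.43, 0.771 and -0.393, so its sign differed in CKD-Oxf.

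**Figure D4:**
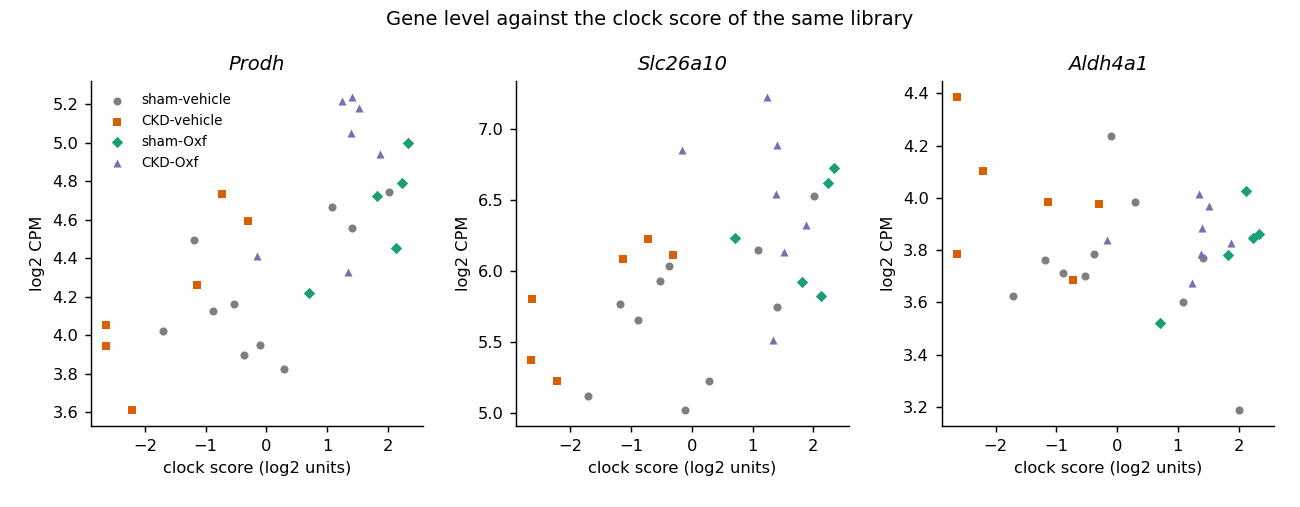
Log2 CPM of Prodh, Slc26a10 and, for comparison, Aldh4a1 against the clock score of the same library, with 1 point per library by group. The Oxf libraries lie at higher scores than the CKD-vehicle libraries; in CKD-Oxf the Slc26a10 points do not climb with the score (r = -0.336).

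Other measures of the libraries differed in range between the groups. The 7SL share of counts ran from 2.12% to 11.6% in sham-Oxf against 2.61% to 22.2% in sham-vehicle, and from 2.24% to 23.0% in CKD-Oxf against 2.58% to 23.6% in CKD-vehicle. With its log2 as covariate, Prodh was at 0.42 (edgeR adjusted p = 0.154) and Slc26a10 at 0.58 (0.146). In that fit 0 of the 9 genes and 0.593% of all genes passed. At an unadjusted p under 0.05 there were 3 of 9, and the share of all genes under that p was not computed. The hepatocyte gene Alb was higher with Oxf by a log2 difference of 2.67 ± 0.69 (edgeR adjusted p = 0.04). No Alb difference is given without the 2 libraries that stand apart. The hepatocyte score is the mean log2 level of all listed hepatocyte genes less their sham-vehicle mean. It averaged -0.34 in sham-Oxf, -1.52 in CKD-vehicle and -0.02 in CKD-Oxf. The summed hepatocyte level was 6.80 to 15.4 CPM in CKD-vehicle, 4.36 to 116 in CKD-Oxf, 8.58 to 32.4 in sham-vehicle and 12.4 to 46.7 with Oxf after sham surgery. The highest CKD-Oxf sum was in replicate 4 and the highest sham-Oxf sum in replicate 1. With the hepatocyte score as covariate, Prodh was at 0.59 (edgeR adjusted p = 0.00879) and Slc26a10 at 0.70 (0.0111), as large as without it, and 13.3% of all genes passed in that fit. The 4 atrial genes, Sln, Myl4, Myl7 and Nppa, each had a negative difference with Oxf, Sln the lowest (edgeR adjusted p = 0.162) and Nppa the nearest to 0 at -0.50, and 0 of 4 passed. Their summed level ran from 925 to 2523 CPM in CKD-vehicle against 101 to 1443 in CKD-Oxf. With sham surgery it ran from 165 to 2366 CPM with vehicle and 62.2 to 1719 with Oxf, and its part in the results was not tested. Of the kidney tubule genes, Umod, Slc22a6 and Aqp2 were under the filter, and Slc34a1, Slc12a1, Slc12a3, Miox and Kap passed it. The summed kidney tubule level had a mean of 1.99 CPM in sham-vehicle (1.06 to 4.23) and 4.33 in CKD-vehicle (1.36 to 9.40). Its mean was 4.04 CPM in sham-Oxf (0.892 to 11.3) and 4.37 in CKD-Oxf (1.99 to 9.59). The part of the kidney tubule level in the results was not tested.

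The rest of the pathway was read from 6 lists of 52 genes, 42 of them tested. In each of the 7 comparisons 0 of the 42 passed with edgeR, the tool used for these lists. Of 12 tested genes of proline and hydroxyproline, 9 had a negative and 3 a positive difference with Oxf, at a median of -0.38, and 5 had an unadjusted p under 0.05, against 23% of all genes. The lowest adjusted p there was for P4hb, a subunit of the prolyl hydroxylase that makes hydroxyproline in collagen, at -0.49 (edgeR adjusted p = 0.0824). Of the list of other glyoxylate enzymes, Ldha and Ldhb were tested, at a median of -0.42, with Ldha at -0.41 ± 0.19. Got2 was at -0.39 ± 0.17 (edgeR adjusted p = 0.173).

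Of 7 tested genes of sulfate use, 5 had a negative difference with Oxf, 1 had an unadjusted p under 0.05 (against the same 23%), and Impad1, a phosphatase of the sulfation pathway, had the lowest adjusted p (-0.62, edgeR adjusted p = 0.0577). Of 9 tested genes of bicarbonate and acid transport, 6 differences were positive and 3 negative, 4 of them with an unadjusted p under 0.05. The 8 genes of methylarginines and beta-aminoisobutyrate, which Agxt2 also handles, were split 4 to 4, with 2 under that p. The 4 other tested SLC26 genes had a median of 0.15 and 0 under that p.

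Genes whose level ran most like that of a member over the 28 libraries were found by Spearman rho among 16802 other expressed genes. These values describe libraries that share depth and handling, and carry no test. Slc26a10 was most like Cacna1c, the gene of the L-type calcium channel pore (rho 0.941), then Ppip5k1 and Brwd1. Prodh was most like Atp10d (0.919), then Xdh, the gene of xanthine dehydrogenase, and Pcf11. Slc26a11 was most like Ift140 (0.939), Slc26a1 like the protocadherin gene Pcdhga4 (0.93) and Slc26a6 like Pigo (0.894) and the potassium channel gene Kcnq1 (0.881). Aldh4a1 was most like Atp6v1d, a subunit of the vacuolar proton pump (0.855). Hoga1 and Grhpr were most like unnamed gene models, at 0.779 and 0.889.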

How the data were processed

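RNA of ventricular myocardium was sequenced on an Illumina NovaSeq instrument, per the labels' protocols. The authors deposited raw gene counts, whole numbers with a different total in each library. FastQC 0.11.7, MultiQC 1.9, STAR 2.6.1d and featureCounts 1.6.3 with build mm10 are named in the submitters' processing notes; annotation and strand setting are not given in the sources used here. All 28 libraries entered 1 fit of 4 group means in edgeR 4.0.16 (R 4.3.3; TMM, filterByExpr with a minimum count of 10, robust quasi-likelihood F test). Benjamini-Hochberg values cover the 24273 genes tested, with a threshold of 0.05. Log2 CPM used a prior count of 2. Replicates were numbered in record order. Every member is named, list genes by fixed role or lowest p, and the most alike genes (up to 3) by rho; the most alike genes of Slc26a2 are not reported here. The members and lists were chosen with earlier results of these data known. Alternatives were DESeq2 1.42.0, limma 3.58.1 voom, other scalings and filters, covariates and left-out libraries; the 7SL covariate and the joint omission of 2 libraries were added after seeing the data.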

Additional observations from a re-analysis of the deposited data

Results flagged for a closer look

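Single libraries lay far from the rest of their group for 4 genes, by the gap to the nearest library divided by the whole range within the group. Of the 40 groups of values examined, 4 passed the 95% limit, and chance flags about 2. Slc26a11 in CKD-Oxf was lowest in replicate 4, at 4.37 against 6.955 CPM (gap 0.6165). Hoga1 in sham-Oxf was highest in replicate 1, at 2.893 against 1.432 CPM (gap 0.7611). Grhpr in CKD-vehicle was highest in replicate 2, at 13.92 against 8.969 CPM (gap 0.634). Agxt2 in sham-Oxf was highest in replicate 2, with 5 counts (gap 0.76). The first 2 of these libraries are the ones that stand apart in gene number or hepatocyte genes, and their part in these values was not tested.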

How the results depend on the processing

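For Oxf averaged over surgery, the 2 genes past the threshold became 4 with limma voom (Slc26a1 and Slc26a11 added), beside 22% of all genes. They became 0 with no filter (0.366% of all genes), with the clock score as covariate (0%) or with the 7SL share as covariate (0.593%). The count was 3 with DESeq2 (9.97% of all genes), with at least 10 counts in every library (10.1%) and with the hepatocyte score as covariate (13.3%). Omitting the 2 libraries that stand apart also gave 3 (19.1%). Leaving out each library in turn gave 0 to 3. It gave 0 without CKD-vehicle replicate 2 (0.449% of all genes) and 3 without CKD-Oxf replicate 4 (13.9%). Prodh turned to -0.00876 with the clock score as covariate. For CKD-Oxf minus CKD-vehicle, the count of 0 became 1 with DESeq2 (1.75% of all genes) and 3 with limma voom (15%). It was also 3 with the hepatocyte score as covariate (5.26% of all genes) and without the 2 libraries that stand apart (8.86%). Leaving out each library in turn gave 0 to 3 there, with 3 only without CKD-Oxf replicate 4 (3.83% of all genes). The cause of these changes was not tested; the unfiltered fit tested 43981 genes. The other 5 comparisons kept a count of 0 under each alternative run. Of 1926 recomputed differences 94 changed sign, 1 of them past the threshold before. No paired analysis was possible because the labels number the mice singly and share no number between groups. With 5 to 10 mice per group, and with Hoga1 at 21 to 67 counts and Agxt2 at 0 to 6 counts per library, small differences of these genes could not be detected.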
